A study of Mus musculus with 4 samples.

Results

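The DNA damage repair genes described here are 37 genes of the 28692 listed for each library, chosen by their symbols as known members of the main repair pathways, and every symbol matched 1 gene. They fall into 11 genes of homologous recombination, 9 Fanconi anaemia genes, 6 genes that sense and signal breaks, 6 end joining genes and 5 genes of base, nucleotide and mismatch repair. Their transcripts were counted in hematopoietic stem and progenitor cells (HSPCs) that were sorted from the bone marrow of male C57BL/6-CD45.2 mice as lineage-negative cells positive for Sca-1 and cKit and negative for Flt3. Young mice were 2 to 3 months old and old mice 17 to 18 months old, and no mouse carried a transgene or received a treatment according to the labels. Each age gave 2 pools of mice and 1 droplet-based single-cell library per pool, so that n = 2 pools per age throughout. The HalioDX facility captured pool A of each age (2 young and 3 old mice), and the TGML platform captured pool B of each age (3 young and 2 old mice). The age of a pool was taken from its title and source name, whereas the description field contradicts that age for young pool B and for old pool A, and these same pools were sequenced more deeply per cell. A pool is the replicate here, single mice within a pool cannot be told apart, and the platform letter was used as a block.

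DNA is damaged and repaired continuously in cells, and each pathway handles a different lesion. Homologous recombination copies the intact sister chromatid and therefore works mainly during and after DNA replication. The Fanconi anaemia pathway removes crosslinks that stall replication forks, and end joining reseals broken ends without a template. Base and nucleotide excision repair replace damaged bases or short stretches of a strand, and mismatch repair corrects copying errors. In blood stem cells, loss of Fanconi anaemia or end joining genes is known to impair the maintenance of the stem cell pool.

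After the filter on UMI counts (UMIs are molecular identifiers, each counting 1 captured transcript), the pools held 2244 to 5189 cells and 16399999 to 36446168 UMIs. Of the 15566 cell barcodes, 113 occurred in 2 pools and 2 in 3 pools. The sort markers Kit and Ly6a (the gene of Sca-1) were detected in all 4 pools, at 71.7 to 164 and 164 to 355 CPM (UMIs of a gene per 1000000 UMIs of the summed cells). Transcripts of Flt3, whose protein the sort selected against, were also detected in all 4 pools, at 2.40 to 48.0 CPM. Flt3 was highest in young pool A, lowest in old pool B, and lower in both old pools than in both young pools. Over the kept cells each repair gene had between 42 UMIs (Rad51b) and 7205 UMIs (Rad50), and all levels below are CPM. The libraries count transcript ends and not whole transcripts, so levels were compared between pools and cell classes and not between genes.

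Cells were also classed by markers that are not repair genes. After each cell was thinned to 3000 UMIs, mitosis-high cells carried at least 5 UMIs of 22 mitosis markers, replication-high cells were the remaining cells with at least 7 UMIs of 21 replication markers, and low-cycle cells had at most 2 replication UMIs and 0 mitosis UMIs. Of the 14685 cells deep enough to be thinned, 333 lay at the replication cut and 365 lay 1 UMI below it, and 119 lay at the mitosis cut and 145 lay 1 UMI below it, so that the classes are ranges of a continuous measure. Median depth before thinning was 5423 to 6280 UMIs in low-cycle cells, 8326.5 to 9903 in replication-high cells and 9666 to 12363 in mitosis-high cells.

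Because many of these genes rose together in cycling cells, the promoters of all members that rose by more than 3 on the log2 scale in replication-high cells and had a window are shown, beside those of the pair that fell. RefSeq promoter windows (GRCm38.p6, 250 bases before to 50 bases after the transcript start) were available here for 32 of the 37 genes, in 36 windows. The 100 bases before the start of Rad51ap1 (chr6:126939588-126939687), Brca1 (chr11:101551956-101552055), Brip1 (chr11:86201194-86201293), Fanca (chr8:123318577-123318676), Rad51c (chr11:87404955-87405054), Rad54l (chr4:116123691-116123790), Bard1 (chr1:71102973-71103072), Xrcc4 (chr13:90089609-90089708) and Xpa (chr4:46196312-46196411), all on the minus strand, read 5′ to 3′ as follows, with the letters CCAAT or their reverse complement ATTGG in capitals.
Rad51ap1: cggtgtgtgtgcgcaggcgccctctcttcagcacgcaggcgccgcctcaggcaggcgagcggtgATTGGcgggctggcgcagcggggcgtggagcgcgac
Brca1: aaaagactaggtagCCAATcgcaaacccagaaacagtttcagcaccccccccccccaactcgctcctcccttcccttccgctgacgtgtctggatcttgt
Brip1: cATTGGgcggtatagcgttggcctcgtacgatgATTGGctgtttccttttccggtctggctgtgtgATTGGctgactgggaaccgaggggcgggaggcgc
Fanca: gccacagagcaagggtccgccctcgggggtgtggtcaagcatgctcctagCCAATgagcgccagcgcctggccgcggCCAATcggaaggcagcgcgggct
Rad51c: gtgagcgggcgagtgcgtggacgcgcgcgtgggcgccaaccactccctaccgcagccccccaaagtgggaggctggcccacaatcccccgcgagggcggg
Rad54l: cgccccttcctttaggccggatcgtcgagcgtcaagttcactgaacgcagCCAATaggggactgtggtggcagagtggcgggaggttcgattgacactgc
Bard1: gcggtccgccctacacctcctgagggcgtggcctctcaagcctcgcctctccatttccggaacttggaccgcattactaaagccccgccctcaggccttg
Xrcc4: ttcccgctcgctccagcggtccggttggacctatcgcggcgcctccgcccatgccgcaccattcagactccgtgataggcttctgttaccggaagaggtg
Xpa: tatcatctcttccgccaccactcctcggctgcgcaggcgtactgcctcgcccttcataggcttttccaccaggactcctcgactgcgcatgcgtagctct

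The letters CCAAT, searched on both strands of the 250 upstream bases, stood in 19 of the 36 windows of repair genes (52.8%), against 33.8% of all 32851 promoter windows. Counted by gene, these letters were found for 17 of 32 repair genes, against 10133 of all 27025 genes with a window. By role they were found for 6 of 10 homologous recombination genes, 5 of 8 Fanconi anaemia genes, 2 of 4 genes of break sensing and signalling, 1 of 5 end joining genes and 3 of 5 genes of base, nucleotide and mismatch repair with a window. Brip1 had 3 copies and Fanca 2 copies within the printed stretch. Rad51c and Bard1, which rose strongly, had none in the 250 bases, nor had Xrcc4, while Xpa had 1 copy that lies upstream of the printed stretch. The 16 tested genes that hold these letters had a median log2 fold change of 1.33 in replication-high against low-cycle cells, and the 15 without them 0.90, with ranges of -0.39 to 4.60 and -0.29 to 3.17 that overlap. An 8-letter motif of E2F type (TTTCCCGC, TTTCGCGC, TTTGCCGC or TTTGGCGC, on either strand) stood in 4 of the 36 windows (11.1%, all promoters 1.86%), those of Bard1, Brca2, Fancg and Xrcc6. The letters TTTGAA stood in 1 of the 36 windows, that of Bard1 (2.78%, all promoters 16.0%). These counts describe letters in a window and were not tested.

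To ask which repair genes vary with the cell cycle among HSPCs, replication-high cells were compared with low-cycle cells within each pool, and 29 of 36 tested members rose and 2 fell. Over all 11974 genes tested, 23.3% rose and 26.8% fell. The median log2 fold change of the members was 0.96, that of all genes was -0.07. Rad51b, a recombination gene with 33 UMIs over the 12 class sums, was too low to be tested. All adjusted p-values are from edgeR's quasi-likelihood test with Benjamini-Hochberg adjustment over all genes tested. Each fold change compares shares of UMIs after edgeR's TMM scaling of the sums, so it can differ from the ratio of the printed CPM.

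The homologous recombination genes rose most, with 10 of 10 tested genes higher in replication-high cells and a median log2 fold change of 3.14. Rad51ap1, which stimulates DNA strand exchange during recombination and lies at chr6:126923050-126939587, was at 3.31 and 2.64 CPM among low-cycle cells of the young pools (A, then B) and at 2.76 and 1.44 among those of the old pools (A, then B). In replication-high cells its levels were 52.5, 64.3, 53.9 and 62.3 in the same order. Each pool thus had a far higher level in replication-high cells and the classes did not overlap, with a log2 fold change of 4.60 (SE 0.145, adjusted p = 6.31e-16). Brca1, the ubiquitin ligase that directs break resection (chr11:101488764-101551955), went from 0.641, 0.824, 0.662 and 0.463 to 11.97, 12.2, 15.6 and 12.5. This was a log2 fold change of 4.38 (SE 0.248, adjusted p = 7.98e-12), and no replication-high pool came near a low-cycle one. Brip1, the helicase partner of Brca1 (chr11:86058138-86201193), was at 0.641 to 1.76 in low-cycle cells and at 12.7 to 20.02 in replication-high cells (log2 fold change 3.97, SE 0.220, adjusted p = 5.67e-12). Bard1, the obligate partner of Brca1 (chr1:71027498-71103146), rose by 3.09 on the log2 scale (SE 0.227, adjusted p = 5.13e-10), and its level in replication-high cells of old pool A, 21.1, stood above the 6.66 to 9.33 of the other pools.

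Exo1, an exonuclease that resects breaks and also serves mismatch repair (chr1:175880581-175913489), rose from 3.20, 1.48, 1.43 and 1.65 to 34.2, 20.2, 28.9 and 35.3 (log2 fold change 3.94, SE 0.190, adjusted p = 6.01e-13). Rad54l, a motor protein that acts in strand exchange (chr4:116094264-116123690), rose from 2.68 to 6.07 up to 33.9 to 46.3 (log2 fold change 3.12, SE 0.161, adjusted p = 1.90e-12). Both were separated between the classes in every pool. Rad51c, another recombination gene (chr11:87376645-87404954) with 131 UMIs in all, rose by 3.17 on the log2 scale (SE 0.382, adjusted p = 7.83e-07). The remaining recombination genes rose less. Brca2, a mediator of recombination, changed by 2.58 (SE 0.117) on the log2 scale, the helicase gene Blm by 2.09 (SE 0.155), and Palb2, which joins Brca1 to Brca2, by 1.42 (SE 0.179).

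**Figure D1:**
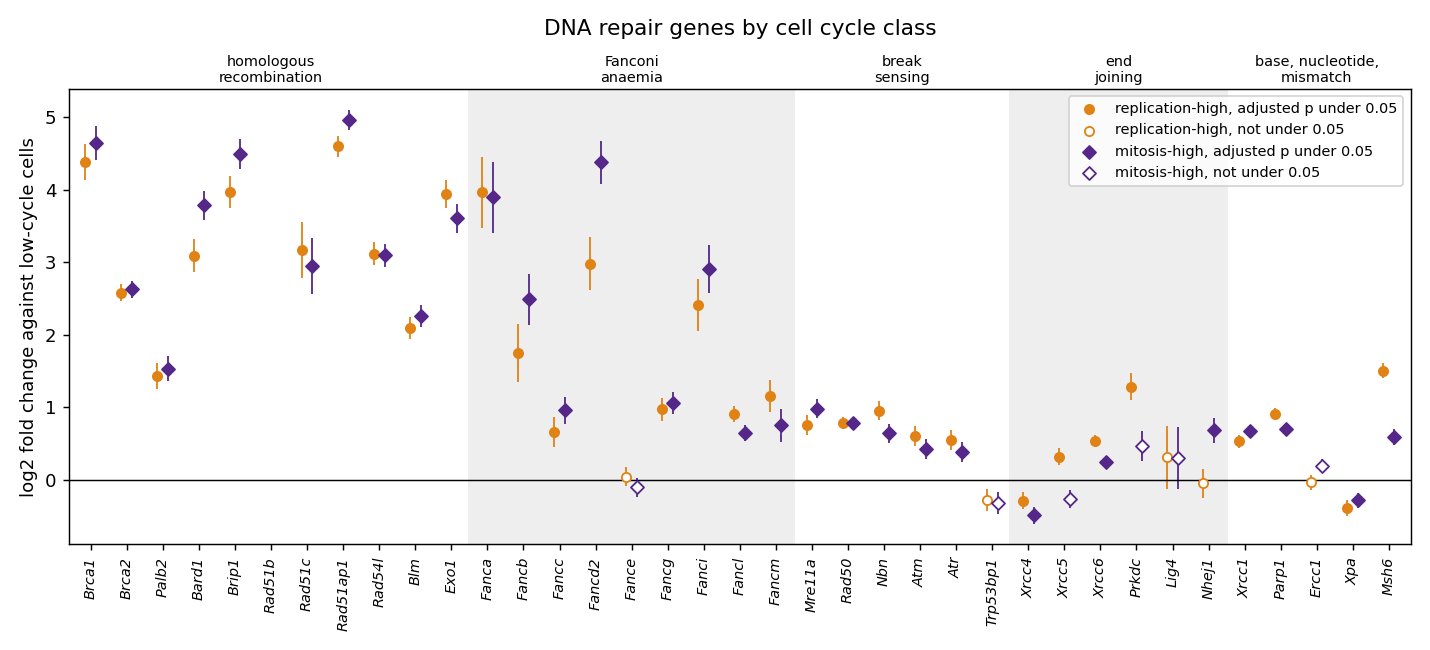
Log2 fold change of each repair gene in replication-high cells (orange circles) and mitosis-high cells (purple diamonds) against low-cycle cells, with bars of 1 SE and filled symbols for an adjusted p under 0.05. The recombination genes on the left reach from 1.42 to 4.96, while the end joining genes lie between -0.49 and 1.28; Rad51b was not tested.

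The Fanconi anaemia genes ranged gradually from strongly to weakly changing, and 8 of 9 rose in replication-high cells with a median log2 fold change of 1.15. Fanca, a scaffold of the core complex that ubiquitinates the pathway's central proteins (chr8:123268300-123318576), was at 0.214 and 0.165 among low-cycle cells of the young pools and at 0.720 among those of old pool B. No UMI was counted in the low-cycle cells of old pool A, which allows a level of up to 0.331 (3 counts, counting error only). Its levels in replication-high cells were 7.62, 4.63, 3.89 and 7.84, a log2 fold change of 3.96 (SE 0.490, adjusted p = 1.08e-06), on 196 UMIs in all. Fancd2 and Fanci, the pair of proteins that the core complex ubiquitinates, rose by 2.98 (SE 0.366) and 2.41 (SE 0.362), and the core gene Fancb by 1.75 (SE 0.399). Fancm, Fancg, Fancl and Fancc rose by 1.15, 0.97, 0.90 and 0.66. Fance, which links the core complex to Fancd2, did not pass the test, at 0.04 (SE 0.129, adjusted p = 0.815).

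Among the genes of break sensing and signalling, 5 of 6 rose, all by less than 1 on the log2 scale. Mre11a, Rad50 and Nbn, whose proteins form the complex that holds broken ends, rose by 0.75 (SE 0.140), 0.79 (SE 0.0705) and 0.95 (SE 0.130). The kinase genes Atm and Atr rose by 0.60 (SE 0.139) and 0.55 (SE 0.138). Trp53bp1, which protects ends from resection and favours end joining, had a log2 fold change of -0.28 (SE 0.150, adjusted p = 0.128), and its levels in the classes overlapped at 12.02 to 23.4 in low-cycle cells and 12.2 to 14.9 in replication-high cells.

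Of the end joining genes 3 of 6 were higher and 1 was lower, with a median log2 fold change of 0.31. The 3 that rose encode the DNA-dependent protein kinase, which binds broken ends: Prkdc, its catalytic subunit, by 1.28 (SE 0.185), and Xrcc6 and Xrcc5, the Ku subunits, by 0.54 (SE 0.0784) and 0.32 (SE 0.117). The genes of the ligation step behaved otherwise. Xrcc4, the scaffold of the ligase (chr13:89774027-90089608), was at 24.9, 25.5, 28.6 and 25.7 in low-cycle cells and at 16.0, 22.7, 28.4 and 21.5 in replication-high cells. It was lower in each pool, though barely in old pool A, and fell by 0.29 on the log2 scale (SE 0.116, adjusted p = 0.0421). Without young pool A its change was -0.11 (adjusted p = 0.524), and neither Xrcc4 (adjusted p = 0.185) nor Xrcc5 (adjusted p = 0.0616) passed with DESeq2. Lig4, the ligase itself with 95 UMIs, and Nhej1, which aligns the ends, did not pass the test at 0.31 (SE 0.430) and -0.05 (SE 0.202).

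In the last group, 3 of 5 genes rose. Msh6, the mismatch recognition gene, changed by 1.503 (SE 0.106), Parp1, which marks strand breaks with poly(ADP-ribose), by 0.90 (SE 0.0814), and Xrcc1, the scaffold of single-strand break repair, by 0.53 (SE 0.0862). Xpa, the damage verification gene of nucleotide excision repair (chr4:46155347-46196311), was at 48.4, 7.41, 39.3 and 18.1 in low-cycle cells and at 36.4, 5.89, 26.1 and 14.5 in replication-high cells. It was lower in all 4 pools and fell by 0.39 on the log2 scale (SE 0.106, adjusted p = 0.00442). Ercc1, a subunit of the incision nuclease, had a log2 fold change of -0.04 (SE 0.105, adjusted p = 0.793).

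These falls are of the share of UMIs, and cells with more UMIs can hold as many copies. Counted per cell, Xrcc4 gave on average 165 UMIs per 1000 low-cycle cells and 210 per 1000 replication-high cells, and Xpa 174 and 191. Over the 37 genes, 31 gave more UMIs per replication-high cell than per low-cycle cell in all 4 pools, and 37 gave more per mitosis-high cell, where 60.0% and 69.6% of all 11974 genes tested did so. For Rad51ap1 the mean rose from 15.6 to 560 UMIs per 1000 cells.

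**Figure D2:**
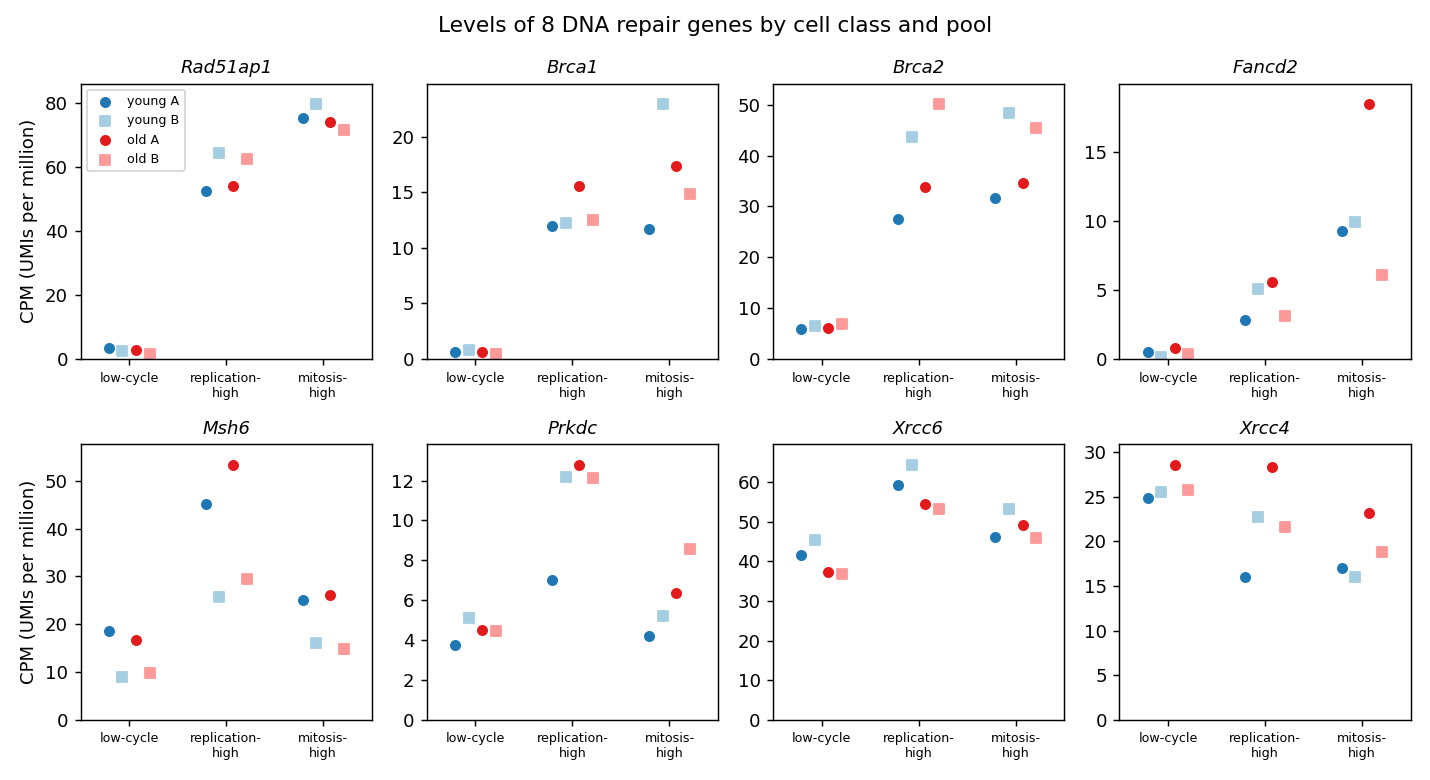
Level of 8 repair genes in CPM (axes start at 0) for the 3 cell classes, 1 point per pool. Rad51ap1 lies at 1.44 to 3.31 in low-cycle cells and at 71.4 to 79.6 in mitosis-high cells, Msh6 and Prkdc are highest in replication-high cells, and Xrcc4 lies below its low-cycle level in mitosis-high cells of every pool.

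In mitosis-high cells 28 of 36 tested members were higher than in low-cycle cells and 2 were lower, where 25.2% of all genes rose and 28.7% fell. The 10 tested recombination genes again all rose, with a median log2 fold change of 3.35. Rad51ap1 was at 75.2, 79.6, 74.0 and 71.4 in mitosis-high cells, in the order of pools given above, a log2 fold change of 4.96 (SE 0.139, adjusted p = 3.05e-17). Brca1 at 4.65 (SE 0.235), Brip1 at 4.49 (SE 0.201), Fancd2 at 4.38 (SE 0.291), Fanca at 3.89 (SE 0.485), Bard1 at 3.78 (SE 0.203), Exo1 at 3.60 (SE 0.194) and Rad54l at 3.09 (SE 0.159) followed. Xrcc4, at 17.1, 16.0, 23.1 and 18.7 in mitosis-high cells, was below its low-cycle level in every pool and fell by 0.49 on the log2 scale (SE 0.116, adjusted p = 0.00129). Xpa fell by 0.28 (SE 0.103, adjusted p = 0.0245), a call that was lost without young pool A (-0.23, adjusted p = 0.213), without old pool A (-0.18, adjusted p = 0.195) or without old pool B (-0.31, adjusted p = 0.0534). In young pool B its level was not lower, at 7.79 against 7.41 in low-cycle cells, and Xpa did not pass with DESeq2. Nhej1 rose by 0.68 (SE 0.175), while Prkdc, Xrcc5, Lig4, Ercc1, Trp53bp1 and Fance did not pass the test.

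The classes were then compared with each other, a contrast added after the values had been seen. Of 36 tested members, 5 were higher in mitosis-high than in replication-high cells (all genes 9.2%) and 4 were lower (all genes 9.82%). Fancd2 changed most, from 2.80, 5.05, 5.56 and 3.13 in replication-high cells to 9.28, 9.95, 18.5 and 6.06 in mitosis-high cells, a log2 fold change of 1.40 (SE 0.256, adjusted p = 0.000511). Every pool showed this rise. Nhej1 at 0.73 (SE 0.212), Bard1 at 0.70 (SE 0.176), Brip1 at 0.53 (SE 0.157) and Rad51ap1 at 0.36 (SE 0.104) were the other higher genes. Msh6 was at 45.2, 25.7, 53.4 and 29.4 in replication-high cells and at 25.0, 16.0, 26.02 and 14.9 in mitosis-high cells, so that its peak lay in the replication class in each pool (log2 fold change -0.92, SE 0.116, adjusted p = 6.12e-06). The genes of the DNA-dependent protein kinase were lower in mitosis-high cells, Prkdc by -0.82 (SE 0.207), Xrcc5 by -0.59 (SE 0.135) and Xrcc6 by -0.29 (SE 0.0850). Of the 9 genes, Fancd2, Bard1, Msh6, Prkdc, Xrcc5 and Xrcc6 also passed with DESeq2. Without young pool A the count was 4 and without young pool B it was 5. Under a stricter class cut Bard1 (-0.33), Brip1 (-0.43) and Rad51ap1 (-0.54) turned negative, and that cut puts cells with 5 to 12 mitosis UMIs into the replication class when their replication UMIs suffice.

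Another 80 repair genes that are not members, 79 of them tested, gave 48 higher and 3 lower in replication-high cells with a median log2 fold change of 0.59. Over all genes tested 23.3% were higher and 26.8% lower, with a median of -0.07. Clspn, a mediator of the replication checkpoint, rose most at 4.74 (SE 0.153), and Ung, the uracil glycosylase, rose by 4.45 (SE 0.140). The 3 that fell were the glycosylase gene Neil1 (-0.60), the nuclease gene Ercc4 (-0.42) and Xpc (-0.24), which recognises distorted DNA, none of which passed with DESeq2. In mitosis-high cells 49 of the 79 rose and 7 fell, where 25.2% of all genes rose and 28.7% fell.

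The study set out to compare ages, and no member of the 37 differed between old and young whole pools by edgeR at an adjusted p of 0.05. Over all 13555 genes 2.03% passed. At an unadjusted p of 0.05 the count was 5 members, where 16.0% of all genes passed, and DESeq2 gave 0 at its adjusted threshold. The fitted values lay below 0 for 29 members and above 0 for 8, with a median log2 fold change of -0.29 beside 0.01 for all genes. In summed pools, fewer cells of a kind and less RNA per cell cannot be told apart.

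The 11 recombination genes all had negative fitted values, with a median of -0.49, though that of Bard1 was only -0.004 (SE 0.250). Over all 13555 genes 6574 fitted values were negative. Rad51ap1 reached 26.8 and 24.9 CPM in the young pools but 13.9 and 14.7 in the old ones (A, then B). Both old pools lay well below both young pools, and the fitted log2 fold change was -0.90 (SE 0.182, adjusted p = 0.0942). It passed when genes with low counts were kept in the test (-0.91, adjusted p = 0.0361). Exo1 was at 13.9 and 9.21 in the young and 6.49 and 6.52 in the old pools, which did not overlap (-0.85, SE 0.246, adjusted p = 0.186). Brca1 was at 5.08 and 6.22 against 3.42 and 3.09 (-0.84, SE 0.240, adjusted p = 0.183). Rad54l was at 18.2 and 17.0 against 12.5 and 9.07 (-0.77, SE 0.182, adjusted p = 0.130). None of these passed the adjusted threshold, though the ages were separated for all 3. The ages overlapped for Palb2 (12.2 and 9.09 against 9.67 and 6.25) and Brip1 (6.83 and 6.22 against 6.35 and 3.88). They also overlapped for Bard1 (5.76 and 2.99 against 7.26 and 2.46) and Rad51b (0.521 and 0.305 against 0.433 and 0.270). Over the classed cells, 7 of the 11 genes had both old pools below both young pools, as had 13.7% of all genes. The summed level of the 11 genes was 121 and 109 in the young and 85.0 and 71.6 in the old pools.

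The members with the largest age values in the other groups separated the ages barely or not at all. Fanca had the largest among the Fanconi anaemia genes, at 3.35 and 1.59 against 1.30 and 1.56 (-0.76, SE 0.490, adjusted p = 0.560), where young pool A alone stood high. Rad50 had the largest of the sensing genes, at 66.5 and 75.7 against 47.0 and 77.0 (-0.29, SE 0.217, adjusted p = 0.626). Without old pool A its value was 0.22, in a fit that had no platform block. Lig4 was at 2.39 and 0.488 against 1.68 and 0.451 (-0.41, SE 0.448, adjusted p = 0.744), where the platforms differed more than the ages. Xpa was at 45.3 and 6.95 against 38.0 and 17.7 (0.45, SE 0.432, adjusted p = 0.706), again with a wider gap between platforms than between ages. Some members with smaller values did separate the ages, though none passed. Parp1 was at 66.9 and 66.4 against 60.5 and 55.9, and Xrcc6 at 46.5 and 49.5 against 40.4 and 40.3. Xrcc4 was higher in the old pools, at 20.3 and 24.3 against 29.5 and 25.0. With any 1 pool left out, an age holds 1 pool and the platform block drops out, so those fits mix platform with age.

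**Figure D3:**
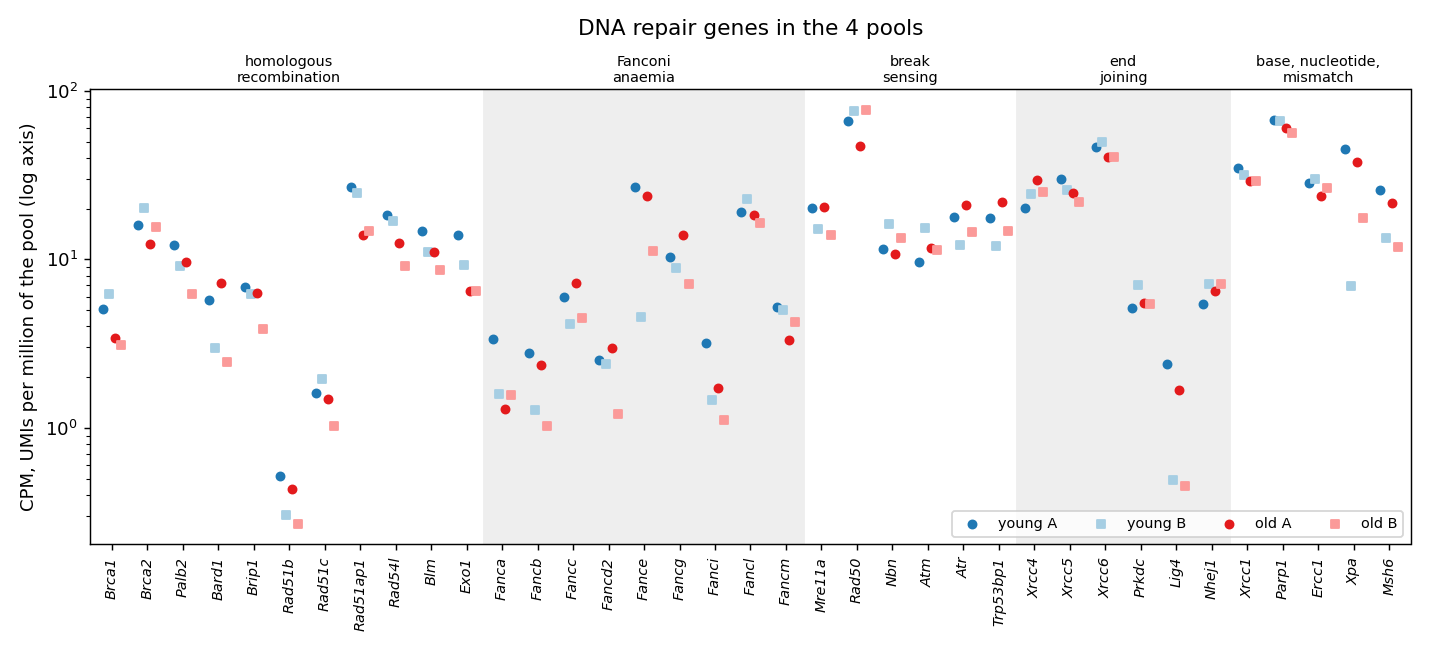
Level of each of the 37 repair genes in the 4 whole pools, in CPM on a log axis, with circles for platform A and squares for platform B. The old pools (red) lie below the young pools (blue) for Rad51ap1, Exo1, Brca1 and Rad54l, while Xpa, Fance, Lig4 and Msh6 are higher on platform A than on platform B at both ages.

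The share of cycling cells was lower in both old pools than in both young pools. Replication-high cells made up 13.3% (95% exact binomial interval 12.4 to 14.3) and 10.6% (9.36 to 11.98) of young pools A and B, and 6.92% (6.05 to 7.86) and 5.90% (5.21 to 6.66) of old pools A and B. Mitosis-high cells made up 12.7% (11.8 to 13.6) and 8.80% (7.64 to 10.1) of the young and 5.81% (5.01 to 6.68) and 7.23% (6.46 to 8.06) of the old pools. On platform B the intervals for mitosis-high cells overlapped between the ages. Low-cycle cells made up 31.1% and 45.4% of the young and 48.1% and 63.1% of the old pools. In each case the shares themselves did not overlap between the ages. The exact two-sided permutation test gave p = 0.33, which is the smallest that 2 pools against 2 allow. The intervals cover counting error only. Other marker lists also separated the ages. The summed level of 10 stem cell genes was 1041 and 1157 in the young and 1922 and 1815 in the old pools, that of 6 neutrophil genes 1138 and 1242 against 1546 and 1429, that of 4 megakaryocyte genes 237 and 199.9 against 261 and 308, and that of 6 erythroid genes 267 and 604 against 236 and 208. The summed level of 6 B and plasma cell genes was 240 and 256 in the young and 1150 and 457 in the old pools, and that of 5 mast and basophil genes was 2037 and 2149 in the young and 933 and 616 in the old pools. Of the B and plasma cell genes, Jchain and Ighm made up most of the sum. Of the neutrophil genes, Prtn3 carried the higher sum, at 501 and 631 in the young and 966 and 1231 in the old pools. Mpo (310 and 246 against 248 and 72.3) and Ctsg (204 and 163 against 151 and 73.6) were lower in the old pool on each platform. Of the erythroid genes, Hba-a1 (256) and Hbb-bt (229) carried the sum of young pool B. In young pool A, old pool A and old pool B, Hba-a1 was at 6.37, 23.9 and 59.4, and Hbb-bt at 61.3, 72.5 and 81.7. Epor was higher in both old pools, at 8.26 and 6.10 against 9.19 and 9.34. Pf4 made up most of each megakaryocyte sum, at 168 and 173 against 174 and 270. Ppbp was lower in the old pool on each platform (8.42 and 5.43 against 5.72 and 4.54). The part of these cells in the repair gene values was not tested.

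Within the cell classes no member passed the age test. In replication-high cells Rad51ap1 was at 52.5 and 64.3 in the young and 53.9 and 62.3 in the old pools (log2 fold change -0.06, SE 0.178, adjusted p = 0.997), and in mitosis-high cells at 75.2 and 79.6 against 74.0 and 71.4 (-0.14, SE 0.211, adjusted p = 1). The ages were thus interleaved in replication-high cells, where whole pools had been apart. Of 34 members tested in replication-high cells, edgeR passed 0 (all genes 0.222%), with 0 at an unadjusted p of 0.05 (all genes 5.58%) and 0 by DESeq2. Of 35 tested in mitosis-high cells it passed 0 (all genes 1.2%), with 1 at an unadjusted p of 0.05, Bard1 (all genes 7.06%), and 0 by DESeq2. Both tests were added after the values had been seen. In low-cycle cells 29 members could be tested, and edgeR passed 0 (all genes 2.61%), with 1 at an unadjusted p of 0.05 (all genes 14.1%) and 0 by DESeq2. That gene was Xrcc5, at 33.1 and 29.3 in the young and 21.3 and 21.0 in the old pools (-0.59, SE 0.191, adjusted p = 0.215). Among low-cycle cells Rad51ap1 was at 3.31 and 2.64 in the young and 2.76 and 1.44 in the old pools (-0.58, SE 0.419, adjusted p = 0.658). The 7 recombination genes tested in low-cycle cells had a median log2 fold change of -0.37, with 5 below 0 and 2 above. The 8 members too low to test there were Brca1, Bard1, Rad51b, Rad51c, Fanca, Fancb, Fancd2 and Fanci. The difference between the age effects of replication-high and low-cycle cells passed for 0 of 36 members by edgeR (all genes 0.852%), with 1 at an unadjusted p of 0.05 (all genes 6.56%), Blm (0.62, SE 0.287, adjusted p = 0.702), and 0 by DESeq2.

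The age difference was also computed with the class mix held equal, giving low-cycle, intermediate, replication-high and mitosis-high cells in every pool the mean share of UMIs that they had over the 4 pools (41.5%, 33.3%, 12.2% and 13.0%). This calculation was added after the values had been seen and carries no test. With each pool's own mix, the median log2 ratio of old to young was -0.45 for the 11 recombination genes and -0.23 for the 37 members, beside 0.06 for all genes. With the mix held equal the medians were 0.01, 0.01 and 0.06. For Rad51ap1 the ratio went from -0.84 to -0.15, for Brca1 from -0.79 to -0.11, for Exo1 from -0.79 to -0.18 and for Rad54l from -0.73 to -0.19. Fanca went from -0.77 to -0.05. The members went both ways about the median, with Bard1 going from 0.05 to 0.63 and Brip1 from -0.38 to 0.28. The platforms differed too, since with the equal mix Brca1 was at 0.30 on platform A and at -0.51 on platform B. By construction the calculation moves a ratio only through differences of the gene between the classes. With the own and then the equal mix, Xrcc5 was at -0.26 and -0.27, Ercc1 at -0.22 and -0.21, and Trp53bp1 at 0.32 and 0.29. Members whose old pools both lay below both young pools numbered 15 with the own mix and 7 with the equal mix, where 13.7% and 10.8% of all genes did so. Of these, recombination gave 7 with the own and 1 with the equal mix, and the Fanconi anaemia genes 3 and 1. End joining gave 2 and 2, and base, nucleotide and mismatch repair 3 and 3.

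**Figure D4:**
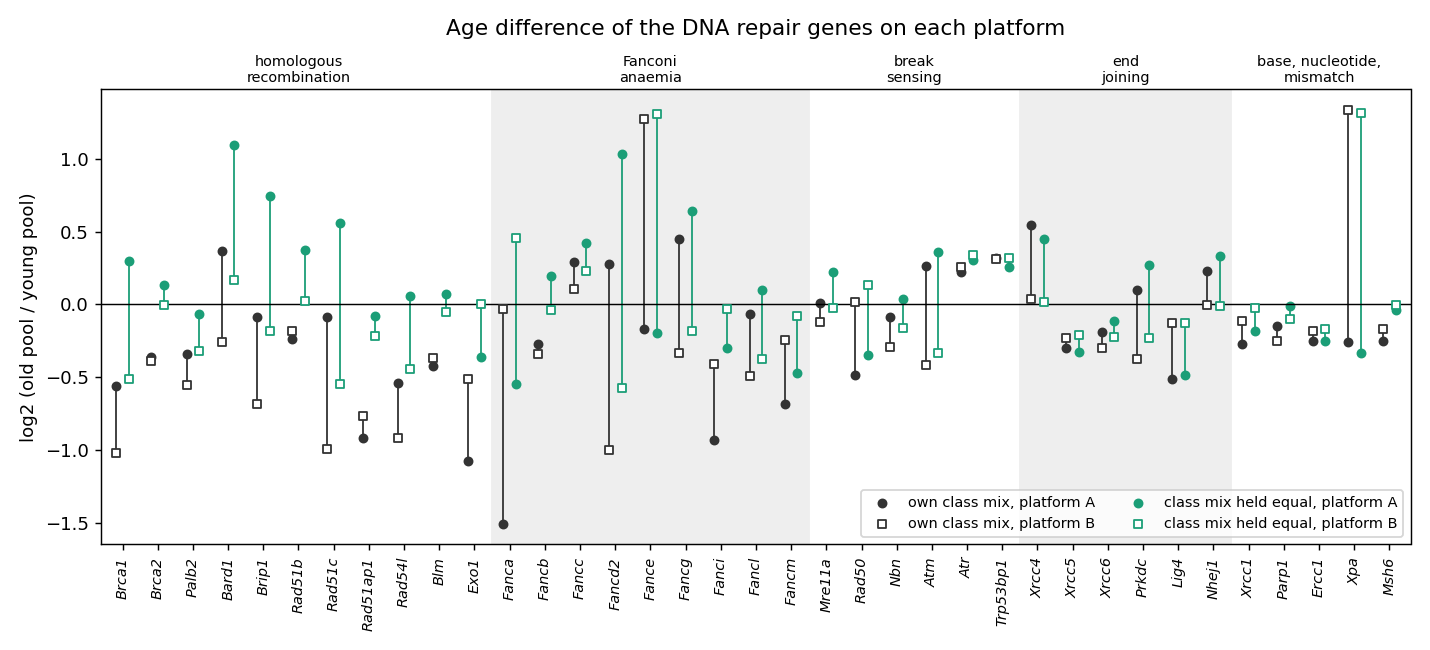
Log2 ratio of old to young for each repair gene on platform A (filled circles) and platform B (open squares), with each pool's own class mix (black) and with the class mix held equal (green). The black symbols of the recombination genes have a median of -0.45 over both platforms and the green ones of 0.01, while Fance and Xpa keep ratios above 1 on platform B alone.

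Repair genes were further compared with the level of stem cell markers among low-cycle cells, between cells with at least 8 and cells with at most 4 UMIs of 10 stem cell genes. Of 26 members tested 1 was lower in stem-marker-high cells, where 4.65% of all genes were lower, and the median of the members was -0.03. That gene was Xrcc6, a Ku subunit (chr15:81987835-82040085), at 36.4, 42.0, 31.7 and 33.2 in stem-marker-high cells, with the pools in the same order as above, and at 44.1, 48.8, 42.1 and 41.3 in stem-marker-low cells. It was lower in all 4 pools, by 0.31 on the log2 scale (SE 0.100, adjusted p = 0.0459). It did not pass with DESeq2 (adjusted p = 0.431), nor without any 1 pool (adjusted p from 0.0938 to 0.207). The recombination genes Brca1, Bard1, Brip1, Rad51b, Rad51c and Exo1 were too low to test in this comparison.

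Levels of some members were apart between the platforms at both ages, which limits any age comparison of them, though none passed by edgeR. Xpa was at 45.3 and 38.0 in pools A and at 6.95 and 17.7 in pools B, Fance at 26.9 and 23.8 against 4.57 and 11.2, Lig4 at 2.39 and 1.68 against 0.488 and 0.451, and Msh6 at 25.9 and 21.6 against 13.5 and 11.9. For all 4 genes each pool A was above each pool B. In a fit of platform with age as a term, added after the values had been seen, the log2 fold changes of B against A were -1.62 (SE 0.438, adjusted p = 0.0983), -1.53 (SE 0.414, adjusted p = 0.0980), -1.82 (SE 0.456, adjusted p = 0.0829) and -0.65 (SE 0.178, adjusted p = 0.101). Other members went the opposite way, such as Nbn at 11.5 and 10.7 in pools A and 16.3 and 13.4 in pools B (0.67, SE 0.177, adjusted p = 0.0941). After TMM scaling the fitted values of B against A lay above 0 for 17 members and below 0 for 20. In this fit they can differ from ratios of the printed CPM. By edgeR 0 of 37 members passed (all genes 7.6%), with 10 at an unadjusted p of 0.05 (all genes 26.8%), and DESeq2 passed 2, Xpa and Fance. The pools of a platform share the capture facility but neither mice nor libraries, so the facility and other differences between the pools cannot be told apart.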

How the data were processed

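The authors deposited raw UMI counts per gene and barcode, made with Cell Ranger 2.2.0 on mm10 (GRCm38) per the submitters' processing notes, with no normalization. Age was taken from titles and source names, since the descriptions of young pool B and old pool A name the other age. Barcodes whose log UMI count fell within 2 SD of their pool mean were kept (14915 of 15566), counts were summed per pool or per pool and class, and no doublet caller was run. Sums were tested with edgeR 4.0.16 in R 4.3.3 (filterByExpr, TMM, quasi-likelihood test, threshold 0.05), with the platform letter (age) or the pool (classes) as a block, and with DESeq2 1.42.0 as an alternative. Age fits with 1 pool left out had no platform block. Scripts were tested on simulated data. Same-letter pools deviated together from their age means (r = 0.489 over 13555 genes). The letter is the capture facility, which the study also kept apart. Gene positions are from GENCODE and promoters from RefSeq, both on GRCm38. The members, role groups and lists were chosen with earlier results of these data known. Full statistics are given for members that passed, for the 8 of largest change where more passed, and for the largest age value per role group. Statistics of other members, passing or not, are given as examples outside this rule.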

Additional observations from a re-analysis of the deposited data

How the results depend on the processing

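The members that passed numbered 29 to 32 in replication-high and 24 to 33 in mitosis-high cells over all alternatives with the pool block (31 and 30 as reported), and 22 and 20 with no replicate block. With 1 pool left out the ranges were 29 to 31 and 28 to 30. No member that passed against low-cycle cells changed direction under any of these. Between mitosis-high and replication-high cells 9 members passed, 0 with no replicate block, 14 under the stricter cut, and 4 to 8 with 1 pool left out. Under the stricter cut Bard1 (-0.33), Brip1 (-0.43) and Rad51ap1 (-0.54) reversed. By age, 1 member (Rad51ap1) passed in whole pools when low counts were kept, and 0 with no replicate block. Of the age values that did not pass, Lig4 ran from -1.55 to 0.83, Rad50 from -0.83 to 0.22 and Xpa from -0.72 to 1.76 (-0.39 without old pool A) with 1 pool left out. Those fits have no platform block, since an age then holds 1 pool, so age and platform cannot be told apart in them. By stem marker level, Xrcc6 was lost with DESeq2, with low counts kept and with no replicate block, and with any 1 pool left out (0 members). Between platforms DESeq2 passed 2 members and the fit with low counts kept 4. The age difference in the share of replication-high cells was -5.56 percentage points, -2.14 under the stricter cut, -6.40 on platform A alone and -4.72 on platform B alone. For mitosis-high cells it was -4.22, -2.23 under the stricter cut, -6.87 on platform A alone and -1.57 on platform B alone. Under the stricter cut on platform B it was -0.47. With 2 pools per age, single members with few UMIs (Rad51b, Lig4, Rad51c) limit what can be detected.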

Other observations

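The wider list of 80 repair genes was also compared between the cycling classes, with 11 of 79 tested genes higher (all genes 9.2%) and 16 lower (all genes 9.82%) in mitosis-high than in replication-high cells by edgeR's quasi-likelihood test. Neil3, a glycosylase gene, was higher by 2.64 on the log2 scale (SE 0.156, adjusted p = 3.98e-11), H2afx, the histone variant that is phosphorylated at breaks, by 2.28 (SE 0.0718, adjusted p = 1.61e-15), and Eme1, a subunit of a structure-specific nuclease, by 1.67 (SE 0.159, adjusted p = 9.74e-08). Ung, the uracil glycosylase, was lower by -2.62 (SE 0.137, adjusted p = 5.66e-12), Alkbh2, which reverses alkylation, by -2.18 (SE 0.209, adjusted p = 9.81e-08), and Helq, a helicase gene, by -1.17 (SE 0.308, adjusted p = 0.0102). This comparison was added after the values had been seen.

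By stem marker level among low-cycle cells, 4 of 72 tested genes of the wider list were lower in stem-marker-high cells (all genes 4.65%) and 0 were higher (all genes 4.09%), with 13 at an unadjusted p of 0.05 (2349 of all 11208 genes tested) and 1 by DESeq2. They were Apex1, the abasic site endonuclease (-0.51, SE 0.0783, adjusted p = 3.00e-05), Tdg, a thymine glycosylase (-0.51, SE 0.153, adjusted p = 0.0328), Lig1, the replicative ligase (-0.49, SE 0.138, adjusted p = 0.0202), and Rpa3, a subunit of the single-strand binding protein (-0.32, SE 0.100, adjusted p = 0.0386). By age in whole pools edgeR passed 0 of 79 with 22 at an unadjusted p of 0.05 (all genes 16.0%), and 64 fitted values lay below 0. DESeq2 passed 2 of them, Ung and Lig1, both lower in old pools, and 528 among all genes. Within the classes neither passed by age. The log2 fold changes of Ung and Lig1 were 0.00 and -0.13 in replication-high, -0.34 and -0.35 in mitosis-high, and -0.80 and -0.58 in low-cycle cells. In the fit of platform, 8 of the 79 were lower on platform B (all genes 7.44%), with Fancf, a Fanconi anaemia core gene, at -4.23 (SE 0.381, adjusted p = 0.0115).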
